A study of Mus musculus with 16 samples.

Results

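The genes described here are the type 2 cytokine genes Il4, Il5 and Il13, the gene Rad50 that lies between them on chromosome 11, and Gata3, Stat6 and Il4ra, which act on them. They were chosen by name as the cytokine locus of T helper 2 (Th2) cells and the factors that turn it on, by a rule that uses no measured value. They are 7 of the 23420 genes counted in RNA and 7 of the 22269 gene intervals counted in chromatin immunoprecipitation (ChIP). All 7 names were found in both kinds of data. Of the 7 genes, 6 had enough reads for the RNA test, all but Il5, and all 7 intervals had enough for the ChIP test.

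Th2 cells make interleukins 4, 5 and 13. Interleukin 4 binds a receptor whose specific chain is encoded by Il4ra, the receptor activates the transcription factor Stat6, and Stat6 raises Gata3, the factor that opens and drives the cytokine locus. Rad50 encodes a DNA repair protein, and its introns carry the locus control region of the neighbouring cytokine genes. Ezh2 is the enzyme of Polycomb repressive complex 2 that places trimethylation on lysine 27 of histone H3 (H3K27me3), a mark of silenced genes.

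The study asked what loss of Ezh2 does to RNA and H3K27me3 in cultured mouse CD4 T cells. The Ezh2KO cells came from the strain Ezh2 fl/fl.CD4Cre, in which Cre recombinase under Cd4 control deletes the floxed Ezh2 alleles in T cells, from their development in the thymus on. The control cells came from Ezh2 fl/fl mice, which carry the same floxed alleles without Cre and are labelled wild type. Flow-sorted naive cells were stimulated with plate-bound antibody to CD3 (5 ug/ml) and soluble antibody to CD28 (1 ug/ml). The iTreg cultures (induced regulatory T cells) also had 200 U/ml of interleukin 2 and 5 ng/ml of TGF-beta1, and the Th0 cultures (neutral activation) had 50 U of interleukin 2 and no TGF-beta1. No culture had added interleukin 4 or antibody to it, as far as the labels say. By title, iTreg cells were taken at day 5 and Th0 cells at day 4, although 1 protocol with harvest at day 4 is given for both, so culture and day cannot be told apart. RNA came from 3 libraries each of iTreg Ezh2KO (KO.150, KO.153, KO.165), iTreg control (154, 155, 177), Th0 Ezh2KO (KO.165, KO.174, KO.175) and Th0 control (173, 176, 177), named by the numbers in their titles. H3K27me3 ChIP came from 2 Th0 libraries each of Ezh2KO (9, 10) and control (7, 33), made with 10 ug of antibody from cells fixed in 1% formaldehyde, with no input or spike-in used here. The labels give numbers but do not say that libraries of a group came from separate mice, so p-values measure only the spread between these samples.

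Depth was 21910114 to 28443427 counted reads per RNA library and 11124172 to 15103496 per ChIP library. Ezh2 itself had 123, 118 and 48.7 reads per 1000000 counted reads (CPM) in iTreg Ezh2KO, against 251, 241 and 166 CPM in iTreg control. It had 169, 154 and 148 CPM in Th0 Ezh2KO, against 307, 295 and 312 CPM in Th0 control, so every Ezh2KO library lay below every control library of its culture (edgeR log2 change -1.18, adjusted p = 0.0235 in iTreg, and -0.99, adjusted p = 0.0618 in Th0). All 10 listed T cell markers had reads in every group, and their summed level was 3068 to 4988 CPM in iTreg Ezh2KO, against 3199 to 4212 CPM in iTreg control. It was 2219 to 2585 CPM in Th0 Ezh2KO, against 3371 to 3498 CPM in Th0 control, without overlap. Foxp3, the defining factor of regulatory T cells, averaged 79.5 ± 13.1 CPM in iTreg Ezh2KO and 913 ± 64.7 CPM in iTreg control (SD, n = 3 each). Some libraries stood apart. As chi-square over degrees of freedom, counts of iTreg KO.165 differed by 442 and 471 from those of KO.150 and KO.153, which differed by 5.26. Counts of iTreg control 177 differed by 173 and 141 from those of 154 and 155, which differed by 9.70. The female-specific transcript Xist had 25036 and 27248 reads in the iTreg and Th0 Ezh2KO libraries KO.165 and at most 21 in any other library, and Th0 Ezh2KO.165 is also the library with the highest Il4, Il5, Il13, Gata3 and Il4ra values of its group. Because RNA was measured in bulk, fewer cells making a transcript and less transcript per cell cannot be told apart in any value that follows.

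The promoters of the 3 cytokine genes are shown because they are the sequences on which Gata3 and Stat6 are known to act and because these 3 genes had the largest RNA differences of the 7 in Th0. Each holds 300 bases, most of them before the gene start and the last 50 after it, on the gene's own strand and 5′ to 3′, from RefSeq (GRCm38.p6, the primary assembly of mm10). The 6-base GATA motif in each is in capitals. The motif was searched on both strands as GATA with A or T before it and A or G after it. The Il4 promoter is chr11:53618616-53618915 on the minus strand, that of Il5 is chr11:53720544-53720843 on the plus strand, and that of Il13 is chr11:53634653-53634952 on the minus strand.
Il4: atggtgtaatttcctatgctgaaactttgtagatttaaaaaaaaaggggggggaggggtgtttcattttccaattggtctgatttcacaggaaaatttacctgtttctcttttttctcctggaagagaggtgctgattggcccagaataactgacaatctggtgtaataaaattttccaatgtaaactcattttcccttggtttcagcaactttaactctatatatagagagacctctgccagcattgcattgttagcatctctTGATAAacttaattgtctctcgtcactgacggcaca
Il5: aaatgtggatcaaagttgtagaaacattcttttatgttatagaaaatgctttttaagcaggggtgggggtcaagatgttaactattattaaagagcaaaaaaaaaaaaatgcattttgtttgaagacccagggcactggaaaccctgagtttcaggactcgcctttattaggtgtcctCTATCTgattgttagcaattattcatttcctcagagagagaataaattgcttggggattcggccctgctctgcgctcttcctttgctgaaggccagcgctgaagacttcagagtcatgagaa
Il13: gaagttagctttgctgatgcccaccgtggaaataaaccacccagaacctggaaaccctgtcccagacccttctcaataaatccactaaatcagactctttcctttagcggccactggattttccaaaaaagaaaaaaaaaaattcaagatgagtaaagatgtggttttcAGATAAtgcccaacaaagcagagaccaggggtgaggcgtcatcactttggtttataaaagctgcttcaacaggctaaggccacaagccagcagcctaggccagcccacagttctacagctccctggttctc

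Each of these promoters held 1 GATA motif, starting at base 15 of the Il4 transcript, at base -72 of Il5 (as CTATCT, the other strand) and at base -81 of Il13. The Gata3 promoter also held 1, starting at base 37, and those of Stat6 and Il4ra held none. The window used for Gata3, chr2:9878551-9878850 on the minus strand, surrounds a start inside the gene. The RefSeq gene reaches upstream to 9887953 and the counted interval to 9890034. A GATA motif was present in 29.8% of the 32851 RefSeq mouse promoters of the same length, so its presence is common. The STAT motif, the half-sites TTC and GAA with any 4 bases between them, was found in the Il4 promoter only among the 6 matched genes, as TTCACAGGAA starting at base -167, and in 6.95% of all promoters. The short NFAT motif GGAAA was found in all 6, and in 61.3% of all promoters. One of its copies in Il4, starting at base -161, overlaps the STAT motif. Rad50 had no entry in the promoter table. A match describes letters in this window and does not show binding.

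Il4 RNA rose in iTreg and Il13 RNA rose in Th0 without Ezh2, from very few reads in control cells, and Il5 reads were found almost only in Th0 Ezh2KO. Gata3 fell without Ezh2 in iTreg, and Stat6, Il4ra and Rad50 passed no test between genotypes with all 12 libraries in 1 model. Of the 6 tested genes, 1 rose and 1 fell in iTreg (edgeR adjusted p under 0.05), where 16.7% of all 12845 tested genes were called, 9.45% higher and 7.26% lower. In Th0, 1 rose and none fell, where 12% of all genes were called, 8.74% higher and 3.22% lower. With 6 genes, these counts of 2 in iTreg and 1 in Th0 are too small to set apart from the shares over all genes. The median log2 change of the 6 genes was -0.07 in iTreg and 0.28 in Th0, beside 0.01 in iTreg and -0.002 in Th0 over all genes.

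**Figure D1:**
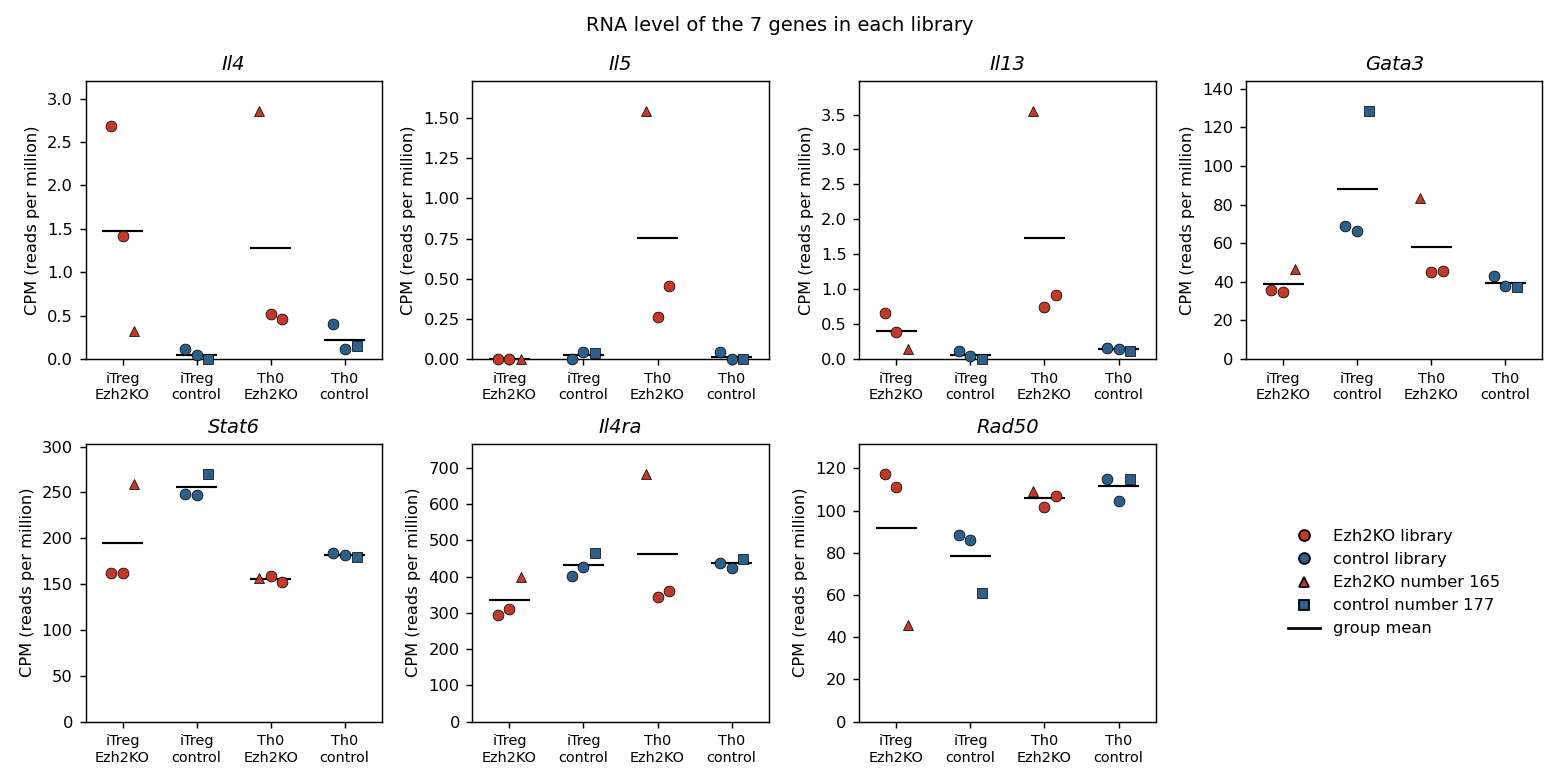
RNA level of each of the 7 genes in CPM (linear axis from 0, own scale per gene) in the 12 libraries, by group, with the group mean as a line. Triangles are the Ezh2KO libraries numbered KO.165 and squares the control libraries numbered 177. The Il4, Il5 and Il13 points of Th0 Ezh2KO.165 stand highest in their group, and the Gata3 points of iTreg control lie at 66.4 to 129 CPM, above all 3 iTreg Ezh2KO points.

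Il4 encodes interleukin 4, the cytokine that starts Th2 differentiation. It had 65, 33 and 7 reads in iTreg Ezh2KO libraries KO.150, KO.153 and KO.165, against 3, 1 and 0 reads in iTreg control libraries 154, 155 and 177. Every iTreg Ezh2KO library was above every iTreg control library, and the Ezh2KO values spanned a wide range. The means were 1.47 ± 1.18 CPM in iTreg Ezh2KO and 0.0517 ± 0.0579 CPM in iTreg control (SD, n = 3 each). The log2 change was 4.69 (SE 1.22, edgeR adjusted p = 0.0255). Over the pooled libraries the CPM ratio was 28.6, with a 95% counting interval of 10.8 to 107. The call rested on few control reads: the adjusted p was 0.0528, 0.0950 and 0.0735 without iTreg control 154, 155 and 177, and 0.0786 without iTreg Ezh2KO.150, with log2 changes of 3.93 to 5.88. With limma-voom in place of edgeR it was 0.0520.

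In Th0, Il4 had 74, 14 and 13 reads in Ezh2KO libraries KO.165, KO.174 and KO.175, against 10, 3 and 4 reads in control libraries 173, 176 and 177. The groups did not overlap, though the lowest Ezh2KO level, 0.457 CPM, was close to the highest control level, 0.407 CPM. The log2 change of 2.47 (SE 1.00) did not pass the test (edgeR adjusted p = 0.164), and it was 1.09 without Th0 Ezh2KO.165 (adjusted p = 0.691). The pooled CPM ratio was 5.68, with a 95% counting interval of 3.38 to 10.1, most of it from library KO.165.

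Il13 encodes interleukin 13, which drives mucus production and tissue responses to worms and allergens. It had 16, 9 and 3 reads in iTreg Ezh2KO libraries KO.150, KO.153 and KO.165, against 3, 1 and 0 reads in iTreg control libraries. The log2 change of 2.81 (SE 1.02) did not pass the test (edgeR adjusted p = 0.0954). It passed with DESeq2 (2.92, adjusted p = 0.0323), and with edgeR without iTreg Ezh2KO.165, the library with the fewest Il13 reads of its group (3.20, adjusted p = 0.0354), and without Th0 Ezh2KO.165 (2.80, adjusted p = 0.0446). In Th0, Il13 had 92, 20 and 26 reads in Ezh2KO libraries KO.165, KO.174 and KO.175, against 4, 4 and 3 reads in control libraries 173, 176 and 177. The means were 1.74 ± 1.58 CPM in Th0 Ezh2KO and 0.142 ± 0.0247 CPM in Th0 control (SD, n = 3 each), with no overlap. The log2 change was 3.53 (SE 0.82, edgeR adjusted p = 0.0196). The call was lost without Th0 Ezh2KO.165 (log2 change 2.48, adjusted p = 0.0706) and without any 1 of the Th0 control libraries (3.40 to 3.63, adjusted p = 0.0787 to 0.0901).

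Il5 encodes interleukin 5, the growth and survival factor of eosinophils. It had 0 reads in all 3 iTreg Ezh2KO libraries and 0, 1 and 1 reads in iTreg control libraries 154, 155 and 177. A count of 0 allows up to 3 reads, which is 0.105 to 0.137 CPM in these libraries, so no genotype difference in iTreg was detectable at this depth. In Th0, Il5 had 40, 7 and 13 reads in Ezh2KO libraries KO.165, KO.174 and KO.175, against 1, 0 and 0 reads in control libraries 173, 176 and 177. All 3 Th0 Ezh2KO libraries were above all 9 others. The pooled Th0 ratio was 57.4, with a 95% counting interval of 9.92 to 2305, and the exact two-sided permutation p over libraries was 0.1, the smallest that 3 against 3 can give. With no filter on low counts, edgeR gave Il5 an adjusted p of 0.0217 in Th0.

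Markers of other cell types differed between the genotypes as well. Of 14 mast cell, basophil and eosinophil markers, 13 were in the files, and their summed level was 1.16, 0.600 and 1.46 CPM in iTreg Ezh2KO libraries KO.150, KO.153 and KO.165, against 0.163 to 0.403 CPM in iTreg control. Within iTreg Ezh2KO this sum did not follow the cytokine reads, since KO.165 had the highest sum and the fewest Il4 and Il13 reads. The sum was 7.38, 1.45 and 1.83 CPM in Th0 Ezh2KO libraries KO.165, KO.174 and KO.175, against 0.667 to 1.18 CPM in Th0 control. Much of the Th0 gap was Cpa3, a mast cell and basophil protease, which had 132, 15 and 24 reads in these Ezh2KO libraries and at most 1 read in any control library. Without Cpa3 the sums were 2.28, 0.891 and 0.984 CPM in Th0 Ezh2KO, against 0.630 to 1.18 CPM in Th0 control, so that only KO.165 lay above the controls. Other markers of the list were split in Th0. Prg2 had 23, 6 and 6 reads in Ezh2KO libraries KO.165, KO.174 and KO.175, against 1 in each control library. Cma1 had 4, 2 and 6 reads, against 0 in each control library. Gata2 and Mcpt8 had few Th0 reads, all of them in Ezh2KO. Ms4a2 and Hdc did not follow Cpa3. Ms4a2 had 10, 0 and 3 reads in Th0 Ezh2KO, against 10, 3 and 5 reads in Th0 control. Hdc had 14, 14 and 7 reads, against 17, 12 and 15. Fcer1a, Tpsb2 and Mcpt4 of the same list were at 0 in all 12 libraries.

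Markers of innate lymphoid, natural killer T and gamma-delta T cells (9 of 10 in the files) summed to 45.8 to 49.5 CPM in iTreg Ezh2KO, against 19.5 to 29.3 CPM in iTreg control, and to 10.2 to 13.1 CPM in Th0 Ezh2KO, against 3.11 to 3.66 CPM in Th0 control. The pair of CD8 genes Cd8a and Cd8b1 summed to 138, 132 and 39.6 CPM in iTreg Ezh2KO libraries KO.150, KO.153 and KO.165, against 18.0 to 26.7 CPM in iTreg control. That order over the 3 Ezh2KO libraries was also the order of their Il4 and Il13 reads, and of their Ezh2 and Rad50 levels. In Th0 the CD8 sum was 6.33 to 10.0 CPM in Ezh2KO, against 6.91 to 10.0 CPM in control. Myeloid and dendritic cell markers (11 of 12 in the files) summed to 5.27 to 13.4 CPM in iTreg Ezh2KO, against 4.23 to 27.0 CPM in iTreg control, and to 3.41 to 4.13 CPM in Th0 Ezh2KO, against 0.964 to 1.22 CPM in Th0 control. The 8 B cell markers summed to 3.86 to 5.80 CPM in iTreg Ezh2KO, against 11.8 to 13.0 CPM in iTreg control, and to 176, 76.0 and 87.7 CPM in Th0 Ezh2KO libraries KO.165, KO.174 and KO.175, against 25.0 to 43.7 CPM in Th0 control. The labels give flow sorting of naive CD4 cells before culture, which is meant to remove these cells, and their part in the cytokine reads was not tested.

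Gata3 encodes the transcription factor that defines Th2 cells and is also made by other T cells. It had 35.6, 34.6 and 46.8 CPM in iTreg Ezh2KO libraries KO.150, KO.153 and KO.165, against 69.2, 66.4 and 129 CPM in iTreg control libraries 154, 155 and 177. The groups did not overlap, and control 177 was far above its group. The log2 change was -1.17 (SE 0.30, edgeR adjusted p = 0.0252). The change was -0.80 without iTreg control 177 (adjusted p = 0.0687), and the call was also lost without iTreg Ezh2KO.150 or KO.153 (adjusted p = 0.0813 and 0.0792) and with the 6 iTreg libraries alone (adjusted p = 0.120). In Th0, Gata3 had 83.2, 45.3 and 45.5 CPM in Ezh2KO libraries KO.165, KO.174 and KO.175, against 42.9, 37.9 and 37.4 CPM in control libraries 173, 176 and 177. The groups did not overlap, but the log2 change of 0.52 (SE 0.30) did not pass the test (edgeR adjusted p = 0.357) and was 0.17 without Th0 Ezh2KO.165. The iTreg change minus the Th0 change was -1.69 (SE 0.43), just outside the threshold (edgeR adjusted p = 0.0544), where 4.49% of genes were called, 1.63% higher and 2.86% lower. No other of the 6 tested genes passed this test either, and 1991 of all genes had an unadjusted p under 0.05. The Gata3 difference passed without iTreg Ezh2KO.165 (-1.84, adjusted p = 0.0188) and without both iTreg libraries that stood apart (-1.47, adjusted p = 0.0237), and with DESeq2 (adjusted p = 0.00356).

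Gata3 RNA and cytokine RNA did not keep the same order over the groups. In iTreg Ezh2KO, Gata3 was at 39.0 ± 6.76 CPM and Il4 at 1.47 ± 1.18 CPM, and in iTreg control Gata3 was at 88.1 ± 35.1 CPM and Il4 at 0.0517 ± 0.0579 CPM. In Th0 Ezh2KO, Gata3 was at 58.0 ± 21.8 CPM and Il4 at 1.28 ± 1.37 CPM, and in Th0 control Gata3 was at 39.4 ± 3.08 CPM and Il4 at 0.224 ± 0.160 CPM (SD, n = 3 each). The iTreg control cells thus had the most Gata3 RNA and the least Il4 RNA of the 4 groups, as means.

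Stat6 encodes the transcription factor that carries the interleukin 4 signal. It had 162, 162 and 259 CPM in iTreg Ezh2KO libraries KO.150, KO.153 and KO.165, against 249, 247 and 271 CPM in iTreg control libraries 154, 155 and 177. Library KO.165 lay among the controls, and the log2 change of -0.39 (SE 0.17) did not pass the test (edgeR adjusted p = 0.155). Without it the change was -0.65 (adjusted p = 6.22e-05). In Th0, Stat6 had 156.3, 158.7 and 152.8 CPM in Ezh2KO libraries KO.165, KO.174 and KO.175, against 184, 182 and 180 CPM in control libraries 173, 176 and 177. This gap was narrow but wider than the spread within either group. The log2 change of -0.26 (SE 0.16) gave an adjusted p of 0.431 with all 12 libraries in 1 fit. The adjusted p was 0.000298 with the 6 Th0 libraries alone and 0.00806 without iTreg Ezh2KO.165.

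Il4ra encodes the chain shared by the receptors for interleukins 4 and 13. It had 294, 311 and 398 CPM in iTreg Ezh2KO libraries KO.150, KO.153 and KO.165, against 402, 428 and 465 CPM in iTreg control libraries 154, 155 and 177. The groups did not overlap, by a narrow margin, and the log2 change of -0.36 (SE 0.24) did not pass the test (edgeR adjusted p = 0.395). In Th0, Il4ra had 684, 342 and 359 CPM in Ezh2KO libraries KO.165, KO.174 and KO.175, against 439, 425 and 449 CPM in control libraries 173, 176 and 177. Library KO.165 was above all controls and the other 2 below them. The log2 change was 0.04 (SE 0.24, edgeR adjusted p = 0.966), and -0.35 without library KO.165 (adjusted p = 0.227).

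Rad50 encodes a subunit of the complex that senses DNA double-strand breaks. It had 118, 111 and 45.8 CPM in iTreg Ezh2KO libraries KO.150, KO.153 and KO.165, against 88.2, 86.0 and 60.8 CPM in iTreg control libraries 154, 155 and 177. The libraries that stood apart were the lowest of each group. The log2 change of 0.23 (SE 0.29) did not pass the test (edgeR adjusted p = 0.713) and was 0.55 without Ezh2KO.165 (adjusted p = 0.0111). In Th0, Rad50 had 109, 102 and 107 CPM in Ezh2KO libraries and 115, 105 and 115 CPM in control libraries, which overlapped (log2 change -0.11, SE 0.29, edgeR adjusted p = 0.915). No genotype change of Rad50 passed with all 12 libraries, unlike that of Il4 in iTreg and that of Il13 in Th0. Within each iTreg group, though, the order of the Rad50 values over libraries was that of the Il4 and Il13 reads. In Th0 Ezh2KO it was that of the Il5 and Il13 reads.

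Per length, the order of the 7 genes was Il4ra, Stat6, Rad50, Gata3, Il13, Il4 and Il5 in Th0 Ezh2KO, with CPM per kilobase of gene length (RPKM) of 90.7 ± 37.8, 41.0 ± 0.782, 20.5 ± 0.766, 18.0 ± 6.79, 1.44 ± 1.31, 1.08 ± 1.15 and 0.492 ± 0.451 (SD, n = 3). Rad50 and Gata3, and the 3 cytokines among themselves, lay within their spread over libraries. Within each Th0 Ezh2KO library, though, the cytokines kept the order Il13, Il4 and Il5. In KO.175 Il4 and Il5 had 13 reads each, so there the order of these genes came from length alone. Il4ra, Stat6, Rad50 and Gata3 thus lay well above the cytokines per length even where the cytokines were highest. In Th0 control, the cytokines had 0.188 ± 0.135 RPKM (Il4), 0.118 ± 0.0205 RPKM (Il13) and 0.00884 ± 0.0153 RPKM (Il5).

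**Figure D2:**
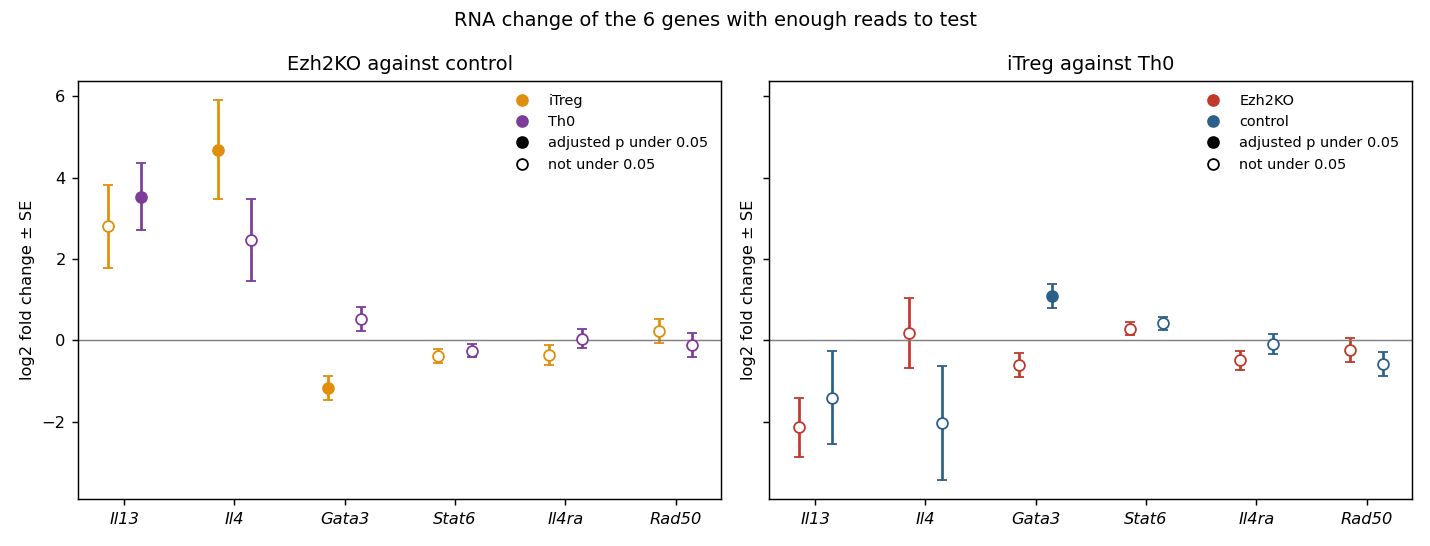
Log2 fold changes with standard errors from the edgeR fit for the 6 tested genes, Ezh2KO against control in each culture (left) and iTreg against Th0 in each genotype (right). Filled points have an adjusted p under 0.05. Gata3 is called lower in iTreg on the left (-1.17) and higher in control cells on the right (1.09), and Il4 and Il13 have the widest errors.

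The culture comparisons set iTreg against Th0 in each genotype for the same genes, and they use the libraries already described. TGF-beta1, the amount of interleukin 2 and, by title, the day differed together, so their parts cannot be told apart. In Ezh2KO cells, 0 of the 6 tested genes were called between iTreg and Th0, where 25.4% of all genes were called, 16.6% higher and 8.75% lower. Of all genes 5613 had an unadjusted p under 0.05, and DESeq2 called 1 of the 6, Il13. Il13 averaged 0.395 ± 0.262 CPM in iTreg Ezh2KO and 1.74 ± 1.58 CPM in Th0 Ezh2KO (SD, n = 3 each), without overlap (log2 change -2.14, SE 0.73, edgeR adjusted p = 0.0553, DESeq2 adjusted p = 0.0247). Il5 was at 0 in iTreg Ezh2KO and at 60 reads in Th0 Ezh2KO, at least 17.1-fold lower in iTreg against a floor of 3 reads over the group. The 95% counting interval of the ratio, which also counts the error of the Th0 reads, reached 0.0742. Without Th0 Ezh2KO.165, which held 40 of the 60 reads, the floor gave at least 8.36-fold. Il4 did not follow them, with 105 reads over the 3 iTreg Ezh2KO libraries and 101 over the 3 Th0 Ezh2KO libraries (log2 change 0.19, SE 0.86, edgeR adjusted p = 0.874). Gata3 had a log2 change of -0.60 (SE 0.30, adjusted p = 0.146), Il4ra of -0.50 (SE 0.24, adjusted p = 0.138), Stat6 of 0.29 (SE 0.16, adjusted p = 0.193) and Rad50 of -0.24 (SE 0.29, adjusted p = 0.531), none past the threshold.

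In control cells, 1 of the 6 genes was called between iTreg and Th0, and it was higher, where 31.4% of all genes were called, 19.9% higher and 11.5% lower. Gata3 rose to 88.1 ± 35.1 CPM in iTreg control, against 39.4 ± 3.08 CPM in Th0 control (log2 change 1.09, SE 0.30, edgeR adjusted p = 0.0233). The groups did not overlap. The change was 0.72 without iTreg control 177 (adjusted p = 0.0836), and the call was also lost without Th0 control 173, 176 or 177 (adjusted p = 0.0590, 0.0784 and 0.0763). Stat6 was at 255 ± 13.1 CPM in iTreg control and 182 ± 2.11 CPM in Th0 control, without overlap (log2 change 0.42, SE 0.17, edgeR adjusted p = 0.0746). It passed without iTreg Ezh2KO.165 (adjusted p = 0.000241) and with the 6 control libraries alone (0.38, adjusted p = 0.0107). Rad50 was at 78.3 ± 15.3 CPM in iTreg control and 112 ± 5.90 CPM in Th0 control, also without overlap (log2 change -0.58, SE 0.30, adjusted p = 0.146). It too passed without iTreg Ezh2KO.165 (adjusted p = 0.00333) and with the 6 control libraries alone (-0.62, adjusted p = 0.0176). Il4 (4 against 17 reads over the groups) and Il13 (4 against 11 reads) were too low to resolve, and Il4ra had a log2 change of -0.09 (SE 0.24, adjusted p = 0.781).

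H3K27me3 over the gene bodies in Th0 cells fell at Il4 and rose at Rad50, Stat6 and Il4ra without Ezh2, relative to library size, and changed past no threshold at Il5, Il13 and Gata3. These 4 of 7 intervals compare with 52.9% of all 20376 tested intervals called, 32.2% higher and 20.6% lower, so being called is common. With library-size scaling the median change of all intervals was 0.21, and no spike-in was used here. Under TMM scaling that median was -0.02, the same 4 genes passed with the same signs, and 46.5% of the called intervals were higher, against 61% by library size.

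**Figure D3:**
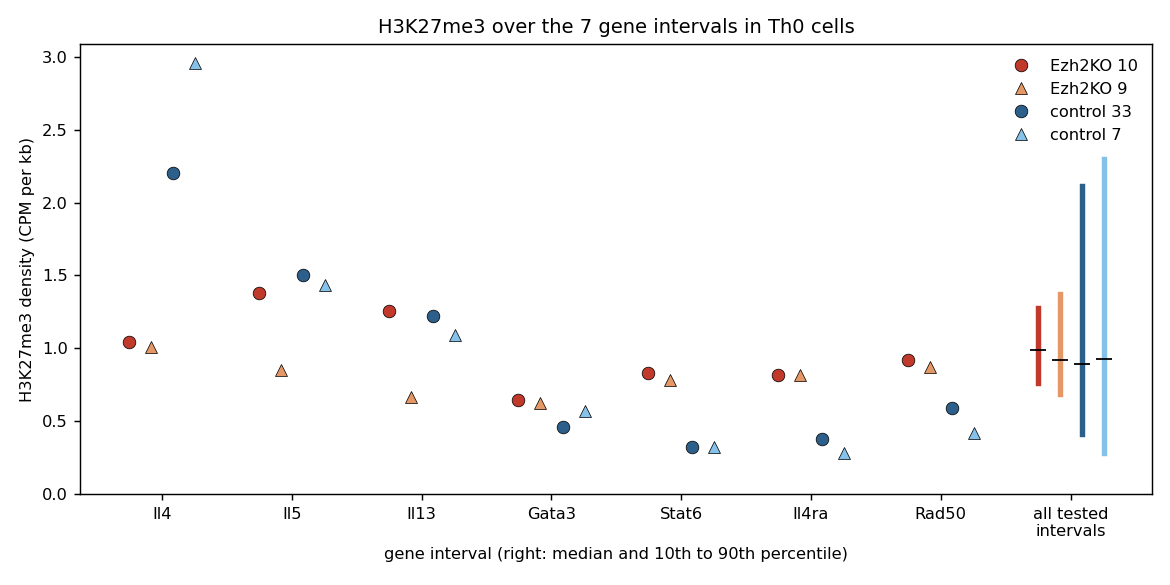
H3K27me3 density in CPM per kilobase of gene interval (linear axis from 0) for the 7 genes in the 4 Th0 ChIP libraries, with the median and the 10th to 90th percentile of all tested intervals at the right. Il4 is at 1.01 and 1.05 in the Ezh2KO libraries, below 2.20 and 2.95 in the controls, and the Ezh2KO bars at the right are shorter than those of the controls.

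Il4 (chr11:53602982-53618669, mm10, minus strand) had an H3K27me3 density of 1.05 and 1.01 CPM per kb in Ezh2KO libraries 10 and 9, against 2.20 and 2.95 CPM per kb in control libraries 33 and 7. In the control libraries it had the highest density of the 7, and 90.8% and 94.2% of tested intervals lay lower in the control libraries, and 61.4% and 62.8% in the Ezh2KO libraries. The log2 change was -1.33 (SE 0.23, edgeR adjusted p = 0.00110). The interval reaches 9478 bases beyond the 3′ end of Il4 in RefSeq, toward Kif3a, so the reads cannot be placed within the gene itself.

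Il13 (chr11:53631324-53634702, minus strand) had 1.25 and 0.665 CPM per kb in Ezh2KO libraries 10 and 9, against 1.22 and 1.09 CPM per kb in control libraries 33 and 7. Il5 (chr11:53720794-53725106, plus strand) had 1.38 and 0.854 CPM per kb in Ezh2KO, against 1.5 and 1.44 CPM per kb in control. Both intervals are short, with 25 to 90 reads per library, and the Ezh2KO libraries disagreed at each. The log2 changes were -0.25 (SE 0.35, edgeR adjusted p = 0.584) at Il13 and -0.38 (SE 0.30, adjusted p = 0.319) at Il5. In Th0 the called RNA gain was that of Il13, and the called loss of the mark was that of Il4. Il4 RNA was also higher in Th0 Ezh2KO without a call (log2 change 2.47, SE 1.00). The difference between the cytokine genes was not tested.

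Rad50 (chr11:53649519-53707319, minus strand) had 0.919 and 0.873 CPM per kb in Ezh2KO libraries 10 and 9, against 0.589 and 0.420 CPM per kb in control libraries 33 and 7 (log2 change 0.83, SE 0.21, edgeR adjusted p = 0.00774). Stat6 (chr10:127642986-127660957, plus strand) had 0.833 and 0.785 CPM per kb in Ezh2KO, against 0.325 and 0.322 CPM per kb in control (log2 change 1.32, SE 0.25, adjusted p = 0.00202). Il4ra (chr7:125552282-125579472, plus strand) had 0.818 and 0.819 CPM per kb in Ezh2KO, against 0.380 and 0.284 CPM per kb in control (log2 change 1.30, SE 0.25, adjusted p = 0.00215). These 3 genes, all transcribed in Th0 cells, had low densities in both genotypes, with 15.7% to 40.2% of tested intervals below them in the Ezh2KO libraries and 4.49% to 31.8% in the control libraries. The 10th to 90th percentile of all intervals was 0.763 to 1.28 and 0.688 to 1.37 CPM per kb in Ezh2KO libraries 10 and 9. It was 0.414 to 2.12 and 0.286 to 2.30 CPM per kb in control libraries 33 and 7. The Ezh2KO densities thus spanned a narrower range than the control densities, with a higher low end and a lower high end, and the changes at Il4 and at these 3 genes had those same directions.

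Gata3 (chr2:9857078-9890034, minus strand) had 0.645 and 0.627 CPM per kb in Ezh2KO libraries 10 and 9, against 0.458 and 0.574 CPM per kb in control libraries 33 and 7. The log2 change of 0.30 (SE 0.23) did not pass the test (edgeR adjusted p = 0.296) and was 0.06 under TMM scaling. Although its density was no lower in Ezh2KO, Gata3 ranked lower there, with 4.56% and 6.10% of intervals below it in Ezh2KO and 14.8% and 36.2% in control. Its interval overlaps 4930412O13Rik and 9230102O04Rik over 8289 bases, and the counting command in the file headers has no option to count reads that fall in more than 1 interval. With Ezh2KO ChIP library 10 or 9 left out, 0 of the 7 genes and 0 of all intervals passed with edgeR, which then assumes that the lone library varies like the controls. The adjusted p of Il4 was 0.0951 without library 10 and 0.0990 without library 9. At an unadjusted p under 0.05 the counts were 3 of 7 without library 10 and 4 of 7 without library 9, and the log2 changes of the 4 called genes kept their signs.

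**Figure D4:**
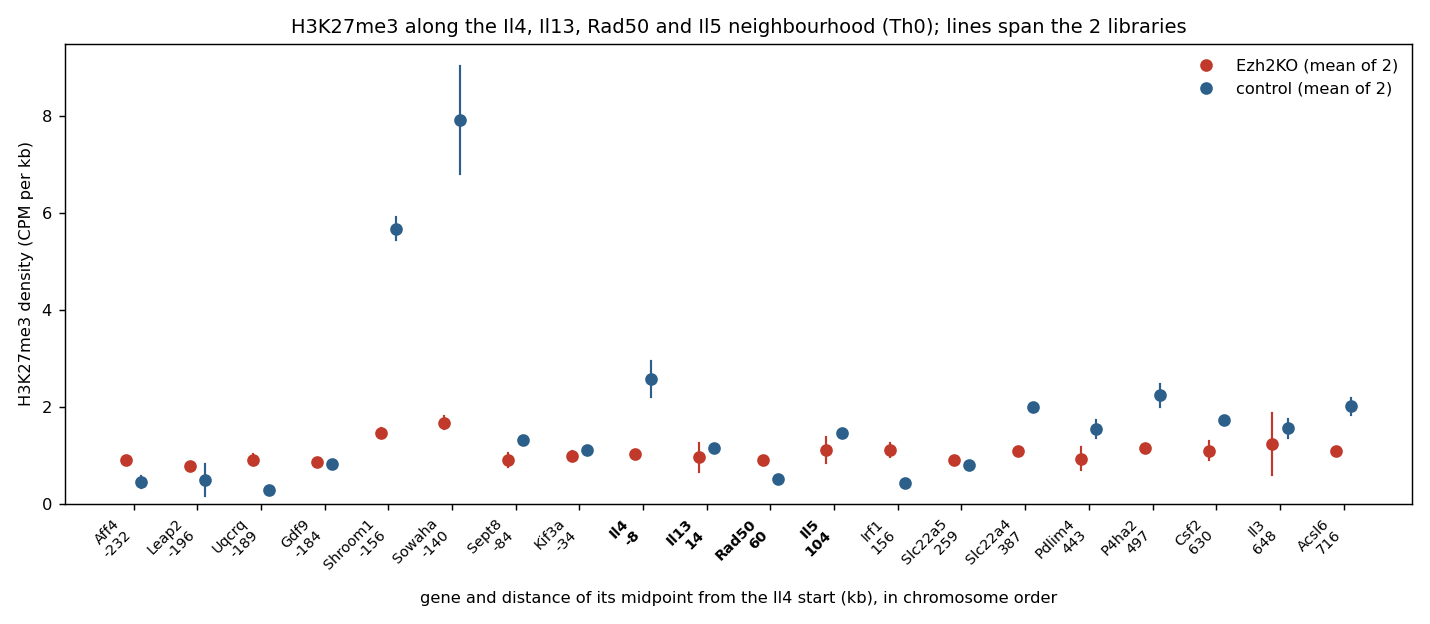
Mean H3K27me3 density in CPM per kilobase (linear axis from 0) of Ezh2KO and control Th0 cells over the 20 gene intervals around Il4, in chromosome order, with the distance of each midpoint from the Il4 start in kilobases and lines that span the 2 libraries. Sowaha and Shroom1 stand highest in control cells (7.93 and 5.68), and the Ezh2KO points all lie between 0.776 and 1.68.

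The neighbourhood of the cytokine genes held intervals with far more of the mark than Il4. Sowaha and Shroom1, on the Kif3a side, averaged 1.68 and 1.46 CPM per kb in Ezh2KO, against 7.93 and 5.68 CPM per kb in control (n = 2 each). Sowaha had 1.54 and 1.81 CPM per kb in Ezh2KO libraries 10 and 9, against 6.81 and 9.05 CPM per kb in control libraries 33 and 7. Shroom1 had 1.37 and 1.56 CPM per kb in Ezh2KO libraries 10 and 9, against 5.44 and 5.92 CPM per kb in control libraries 33 and 7. Both fell, by 2.25 and 1.96 on the log2 scale (edgeR adjusted p = 0.000132 and 9.52e-05). Between them and Il4, the septin gene Sept8 and the kinesin gene Kif3a had log2 changes of -0.53 and -0.16 and did not pass (adjusted p = 0.0556 and 0.530). The called losses at Sowaha, Shroom1 and Il4 were thus separated by 2 intervals without a called loss. Sept8 lay just outside the threshold, so a break in the loss is not shown there. On the far side of Il5, Irf1, an interferon response factor, rose by 1.33 on the log2 scale (adjusted p = 0.00344), with 1.11 CPM per kb in Ezh2KO, against 0.437 CPM per kb in control. Farther out, the transporter gene Slc22a4 and the genes Pdlim4, P4ha2 and Acsl6 fell by 0.88, 0.71, 0.97 and 0.87 on the log2 scale (adjusted p = 0.00160, 0.0477, 0.00216 and 0.00143). The cytokine genes Csf2 and Il3 had log2 changes of -0.64 and -0.29 and did not pass (adjusted p = 0.113 and 0.631), as did Slc22a5 and Gdf9 (0.15 and 0.06, adjusted p = 0.577 and 0.875). On the Kif3a side Aff4 and Uqcrq rose by 1.00 and 1.65 (adjusted p = 0.00647 and 0.00521), and Leap2 had too few reads to test. In all, 7 of the 19 tested intervals of the neighbourhood, Il4 included, fell and 4, Rad50 included, rose. Of all tested intervals, 20.6% were called lower and 32.2% higher. The median change of the 15 tested neighbours was -0.53, beside 0.21 over all intervals. In RNA, 2 of 11 tested neighbours rose in Th0 and none fell (8.74% of all genes higher and 3.22% lower), Sept8 (log2 change 2.01, adjusted p = 0.000134) and Csf2 (3.40, adjusted p = 0.0145). In iTreg, where 9.45% of all genes were called higher and 7.26% lower, 2 rose, Kif3a and Irf1 (1.11 and 1.39), and 4 fell, Slc22a5, Pdlim4, Acsl6 and Il3 (-1.72, -4.69, -3.57 and -3.84). Sept8, Kif3a, Irf1, Slc22a5, Pdlim4 and Acsl6 were named here for RNA after their values were seen.

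Other cytokines and chemokines linked to type 2 responses were followed through a list of 12, of which 6 had enough RNA reads to test. In iTreg 2 of the 6 rose and 2 fell, beside 9.45% of all genes called higher and 7.26% lower. Interleukin 10, an anti-inflammatory cytokine, averaged 9.90 ± 2.92 CPM in iTreg Ezh2KO and 0.134 ± 0.0648 CPM in iTreg control (Il10, log2 change 6.17, edgeR adjusted p = 0.00197). Ccl1, the ligand of Ccr8, rose by 1.9 (adjusted p = 0.0273), and Ccl22, a ligand of Ccr4, and Il3 fell by 3.77 and 3.84 on the log2 scale (adjusted p = 0.00608 and 0.0206). In Th0, 4 of the 6 rose and none fell, beside 8.74% of all genes called higher and 3.22% lower. Il10 averaged 12.5 ± 14.4 CPM in Th0 Ezh2KO and 0.0526 ± 0.0456 CPM in Th0 control (log2 change 7.76, adjusted p = 0.00177). Ccl1, Csf2 and Il24 rose by 6.0, 3.40 and 5.67 (adjusted p = 0.000446, 0.0145 and 0.0178). The median log2 change of the 6 was 1.07 in iTreg and 4.53 in Th0. In H3K27me3, where 20.6% of all intervals were called lower and 32.2% higher, 7 of the 12 intervals of this list fell and none rose, among them Il9 (-1.40, adjusted p = 0.00244), Il10 (-1.12, adjusted p = 0.00480) and Areg (-1.08, adjusted p = 0.00386), with a list median of -0.71. Of the 14 intervals of interleukin 4 receptor signalling genes 9 rose and 1 fell, with a list median of 1.03. The difference between these lists was not tested.

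Of the receptors of type 2 cells, 7 of 12 listed genes could be tested, and those called were the chemokine receptors Ccr4 and Ccr8. Ccr8 averaged 11.4 ± 1.18 CPM in iTreg Ezh2KO and 36.5 ± 2.53 CPM in iTreg control (log2 change -1.67, edgeR adjusted p = 0.00234). In Th0 it averaged 24.4 ± 10.6 CPM in Ezh2KO and 9.20 ± 1.75 CPM in control (log2 change 1.37, adjusted p = 0.00961). The iTreg change minus the Th0 change of Ccr8 was -3.04 (edgeR adjusted p = 0.00303). Ccr4 averaged 11.3 ± 6.30 CPM in iTreg Ezh2KO and 157 ± 37.4 CPM in iTreg control (log2 change -3.78, adjusted p = 0.00115). In Th0 Ccr4 had 66.5 ± 39.1 CPM in Ezh2KO and 63.5 ± 4.19 CPM in control (log2 change 0.03, adjusted p = 0.988). The interleukin 33 and 25 receptor genes Il1rl1 and Il17rb had wider changes than Ccr8 that did not pass, -3.08 and -2.13 in iTreg (adjusted p = 0.0591 and 0.348) and 3.44 and 4.06 in Th0 (adjusted p = 0.0794 and 0.166). The counts called were 0 higher and 2 lower in iTreg (9.45% and 7.26% of all genes), and 1 higher and 0 lower in Th0 (8.74% and 3.22% of all genes), with list medians of -1.67 and 0.10.

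Of 13 tested kinases, adaptors, phosphatases and inhibitors of the interleukin 4 receptor pathway, 1 rose and 1 fell in each culture, a share near those of all genes called (16.7% in iTreg and 12% in Th0). Socs5, an inhibitor of interleukin 4 signalling, averaged 32.9 ± 9.66 CPM in iTreg Ezh2KO and 18.4 ± 0.428 CPM in iTreg control (log2 change 0.84, edgeR adjusted p = 0.00714). In Th0 Socs5 averaged 25.6 ± 0.945 CPM in Ezh2KO and 12.8 ± 0.181 CPM in control (log2 change 0.97, adjusted p = 0.00538). Socs2, an inhibitor of cytokine receptor signalling, fell by 1.44 in iTreg and by 1.64 in Th0 on the log2 scale (adjusted p = 0.0244 and 0.0184). The list medians were -0.01 in iTreg and -0.29 in Th0.

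A list of 16 transcription factors and other regulators linked to type 2 cells was tested in full. In iTreg 3 of them rose and 2 fell, beside 9.45% of all genes called higher and 7.26% lower. Gfi1, a repressor that favours Th2 growth, averaged 89.96 ± 40.8 CPM in iTreg Ezh2KO and 9.37 ± 8.40 CPM in iTreg control (log2 change 3.27, edgeR adjusted p = 0.00348). The Notch partner Rbpj and the receptor Notch1 rose by 0.87 and 0.44 (adjusted p = 0.0216 and 0.0314), and Ecm1 and Nfatc2 fell by 3.01 and 1.00 (adjusted p = 0.00245 and 0.000389). In Th0, 5 rose and 1 fell, beside 8.74% of all genes higher and 3.22% lower. Maf, an activator of Il4, averaged 46.8 ± 9.71 CPM in Th0 Ezh2KO and 2.50 ± 0.257 CPM in Th0 control (log2 change 4.19, adjusted p = 0.00117). In iTreg Maf had 154 ± 60.97 CPM in Ezh2KO and 158 ± 127 CPM in control. Bhlhe41 (4.19, adjusted p = 0.00290), Nfil3 (2.53, adjusted p = 0.00644), Rbpj (1.30, adjusted p = 0.00447) and Dennd1b (0.48, adjusted p = 0.0158) also rose in Th0 (Il24, Nfil3 and Dennd1b were named after their values were seen), and Junb, an activator of Il4, fell by 0.68 (adjusted p = 0.0161). The list medians were 0.17 in iTreg and 0.11 in Th0.

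Of 12 tested factors that restrain Gata3 or the Th2 cytokine genes or work in other T cell programmes, 5 rose and 4 fell in iTreg (9.45% of all genes higher and 7.26% lower), and 3 rose and 2 fell in Th0 (8.74% higher and 3.22% lower). Eomes, a T-box factor of cytotoxic cells, averaged 265 ± 179 CPM in iTreg Ezh2KO and 8.99 ± 2.98 CPM in iTreg control (log2 change 4.88, edgeR adjusted p = 0.000706). Runx1, which represses Gata3 and Il4, averaged 6.06 ± 2.62 CPM in iTreg Ezh2KO and 120 ± 15.2 CPM in iTreg control (log2 change -4.30, adjusted p = 1.8e-05). In Th0 Runx1 averaged 52.6 ± 7.62 CPM in Ezh2KO and 74.4 ± 1.08 CPM in control, which did not pass (log2 change -0.53, adjusted p = 0.216). Zfpm1, the Gata partner known as FOG1 that restrains Gata3, fell by 0.75 in iTreg (adjusted p = 0.000855), and Runx3, which represses Il4 in Th1 cells, rose by 0.80 (adjusted p = 0.00138). Foxp3 fell by 3.52 on the log2 scale (adjusted p = 0.000133). Hlx, a Th1 factor, rose by 4.75 in iTreg and 6.26 in Th0 (adjusted p = 0.000291 and 0.000259). In Th0 Eomes and Pparg rose by 4.39 and 5.16 (adjusted p = 0.00163 and 0.00474), and Foxp3 and Mbd2, a reader of methylated DNA, fell by 2.45 and 0.43 on the log2 scale (adjusted p = 0.00113 and 0.0167). The list medians were 0.14 in iTreg and 0.29 in Th0.

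**Figure D5:**
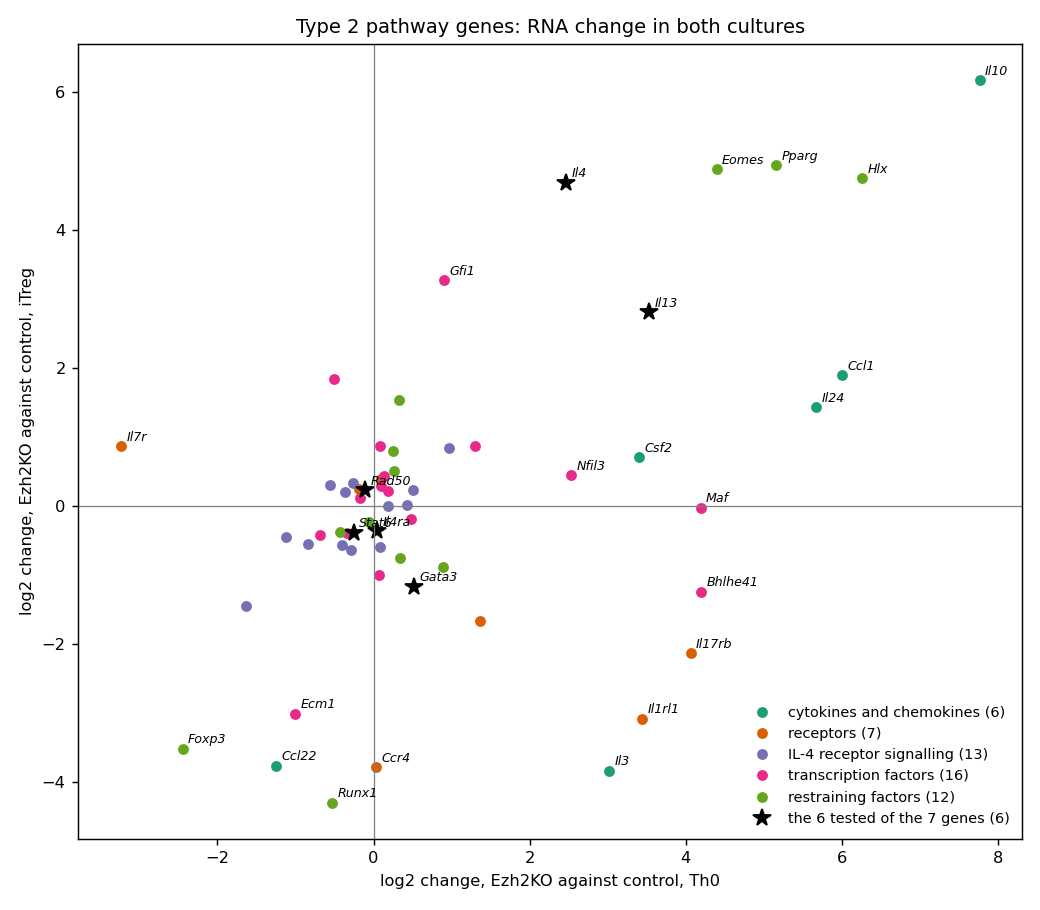
Log2 RNA change of Ezh2KO against control in Th0 (horizontal axis) and in iTreg (vertical axis) for every tested gene of the 5 pathway lists and for the 6 tested genes of the cytokine locus and Gata3 axis (stars). Il4 and Il13 lie at the upper right (2.47 and 3.53 in Th0, 4.69 and 2.81 in iTreg), and Gata3 lies at the lower right (0.52 in Th0, -1.17 in iTreg).

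Between the cultures, some of the genes of these lists changed. In Ezh2KO cells Maf rose by 1.69 in iTreg against Th0 (edgeR adjusted p = 0.0332), Bhlhe41 fell by 4.76 (adjusted p = 0.00203) and Runx1 fell by 3.15 (adjusted p = 0.000165). In control cells Maf rose by 5.90 (adjusted p = 0.000193), the interleukin 33 receptor Il1rl1 rose by 4.66 (adjusted p = 0.0129; 0.724, 0.693 and 8.18 CPM in iTreg control libraries 154, 155 and 177, against 0.0407, 0.111 and 0.191 CPM in Th0 control libraries 173, 176 and 177), and Tbx21, the Th1 factor that opposes Gata3, fell by 2.72 (adjusted p = 0.000375). Without iTreg control 177 the Il1rl1 change was 2.51 (adjusted p = 0.0227), and its call was lost without Th0 control 173 or 176. The Maf call in Ezh2KO was lost without iTreg Ezh2KO.165 or any 1 Th0 library (highest adjusted p = 0.107). Of the 34 genotype calls that the rule for named genes picked from the pathway lists, 25 held with each of the 12 libraries left out in turn, and none changed sign. In Th0 the calls of Junb, Mbd2 and Socs2 were lost without any of 5 or 6 single Th0 libraries, and that of Csf2 without control 173 or 176 or Ezh2KO.165 (highest adjusted p = 0.0660, 0.0744, 0.0819 and 0.0770). In iTreg the calls lost were those of Ccl1, Il3, Socs2, Rbpj and Notch1 (highest adjusted p = 0.0902, 0.0724, 0.0866, 0.0768 and 0.129).

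The genes whose RNA tracked Gata3, Il4 and Il13 most closely over the 12 libraries are given as a description, with the group differences shared by all points. For Gata3 they were Hc, Chdh and H2-Ob (Pearson r of log2 CPM 0.963, 0.955 and 0.942). For Il4 they were Nkx3-2, Epdr1 and Dhdh (0.935, 0.934 and 0.928), and for Il13 they were Rbpj, Susd1 and Sdc1 (0.976, 0.973 and 0.970).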

How the data were processed

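RNA (12 libraries, 3 in each of 4 groups) and H3K27me3 ChIP DNA (4 libraries, 2 in each of 2 Th0 groups) were analysed from the deposited read counts. Per the submitters' processing notes, which name tools without roles, Trimmomatic 0.30, TopHat2 2.0.6 and featureCounts 1.4.2 were used for RNA, and Bowtie2 2.1.0 and featureCounts 1.4.2 for ChIP, with the build mm10. The authors' counts are raw reads per gene for RNA and, per the file headers, raw reads per whole gene interval for ChIP, counted without strand in the ChIP command. RNA strand use is not given in the sources used here. Gene length and interval positions are other columns deposited by the authors.

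CPM was computed as reads per 1000000 counted reads, RPKM with the deposited gene length, and ChIP density as CPM per kb of interval. Tests used edgeR 4.0.16 (R 4.3.3) quasi-likelihood with robust fitting, filterByExpr at a minimum count of 10 and Benjamini-Hochberg adjustment over all 12845 genes or 20376 intervals tested, at a threshold of 0.05, two-sided. The RNA fit held all 12 libraries in 4 groups with TMM scaling. The ChIP fit was scaled by library size. The fits were tested on simulated data. Intervals at 95% confidence and the floor of 3 reads cover counting error only, since PCR reads without molecular identifiers are not independent molecules. Alternatives were DESeq2 1.42.0, limma-voom (limma 3.58.1) with and without a block by library number, no filter, TMM for ChIP, the 6 libraries of a culture or genotype alone, and leaving out libraries. Motifs were searched in RefSeq promoters with Python 3.11.15, and 6 of the 7 genes matched.

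The 7 genes, the pathway and marker lists and the alternatives were chosen with earlier results of these data known. Named genes were the 7, every listed locus neighbour for H3K27me3, the 3 called genes per direction of smallest p in each pathway list (2 for cultures), and the 3 genes most like Gata3, Il4 and Il13; for cultures and for H3K27me3 of the pathway lists only examples are given, chosen after their values were seen.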

Additional observations from a re-analysis of the deposited data

Results flagged for a closer look

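The genotype change of Gata3 lay in opposite directions in the 2 cultures, with every iTreg Ezh2KO library below every iTreg control library and every Th0 Ezh2KO library above every Th0 control library. The Th0 gap was narrow, with 45.3 and 45.5 CPM in Ezh2KO libraries KO.174 and KO.175, against 42.9 CPM in control 173. Without Th0 Ezh2KO.165 the Th0 log2 change was 0.17. The share of all genes with such a pattern was not counted. The difference of the changes, iTreg minus Th0, was -1.69 on the log2 scale and did not pass the test (edgeR adjusted p = 0.0544).

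Of 89 tested genes of the 5 pathway lists and of the lists of neighbours of the Th2 locus, Gata3, Stat6 and Il4ra, 15 had a genotype change that differed between the cultures by the test of the difference itself (edgeR adjusted p under 0.05). The iTreg change was the lower one in 14 and the higher one in 1, beside 2.86% of all genes called lower and 1.63% higher. For transcription factors and other regulators the differences were -5.43 for Bhlhe41, -4.21 for Maf, -3.76 for Runx1, -1.09 for Zfpm1, -1.06 for Nfatc2 and -0.66 for Dennd1b. For cytokines and receptors they were -6.86 for Il3, -6.52 for Il1rl1, -4.10 for Ccl1, -3.81 for Ccr4 and -3.04 for Ccr8. For locus neighbours they were -3.87 for Pdlim4, -2.34 for Sept8 and -1.49 for Slc22a5, and for the Gata3 neighbour Sfmbt2 the difference was 0.71. Il3, for example, had log2 changes of -3.84 in iTreg and 3.02 in Th0. With each library left out in turn, 8 of the 15 calls held in every case, and those of Il1rl1, Dennd1b, Il3, Ccl1, Sfmbt2, Bhlhe41 and Ccr4 were lost in some (highest adjusted p = 0.114). The Il1rl1 difference was -4.36 without iTreg control 177, and that of Il3 was -11.8 without Th0 control 177. B cell markers had the same direction, with 6 of 8 called lower in this difference, and their part was not tested.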

How the results depend on the processing

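Of 609 values of the 7 genes under alternatives, 546 kept their direction and side of the threshold, 25 gained a call, 27 lost one and 11 reversed without a call in either setting. Only values called in the main fit could lose a call, and most values were not called there. In RNA, Il4 in iTreg lost its call under 6 alternatives, and Il13 in Th0 and Gata3 in iTreg under 4 each. Gata3 between cultures in control cells lost it under 5. Each of these RNA calls was lost with some single library left out. The other losses were of H3K27me3 calls.
The Ezh2KO and control groups share no library number, and each genotype has 1 number in both cultures (KO.165 and 177), so a fixed block leaves no residual degrees of freedom. A replicate block by library number was therefore fitted over the 12 libraries with limma-voom and an estimated correlation, an alternative chosen after seeing the data. The correlation was -0.00866, and the deviations of same-numbered libraries from their group means correlated at 0.0445 (KO.165) and -0.00307 (177). With the block 2083 genes were called in iTreg, 1441 in Th0, 2960 for culture in Ezh2KO, 3841 in control and 509 for the difference. Of the 7 genes 1 was then called in iTreg, where Il4 lost its call (adjusted p = 0.0513), and Il4ra in Th0 was at -0.030. Limma-voom with no block gave the same calls of the 7 genes, with 1 called in iTreg (Il4 adjusted p = 0.0520) and Il4ra in Th0 at -0.031.
Reversed log2 changes with 1 library left out were as follows, with the range over all libraries left out. For iTreg against Th0 in Ezh2KO, Il4 ran from -0.57 to 1.55 (-0.57, -0.19 and -0.22 without iTreg KO.150, Th0 KO.174 and KO.175) and Rad50 from -0.46 to 0.082 (0.082 without iTreg KO.165, and 0.083 without that and iTreg control 177). In Th0, Il4ra ran from -0.35 (without KO.165) to 0.22, and Il13 H3K27me3 from -0.80 to 0.11 (without Ezh2KO 9). In the difference between cultures Il13 ran from -1.31 to 0.46 (0.46 and 0.32 without iTreg control 154 and Th0 KO.165), and Ezh2 from -0.40 to 0.13 (without iTreg KO.165).
Counts of genes called moved most. With 1 library left out they ran over 1376 to 5763 for genotype in iTreg, 799 to 3529 in Th0, 1110 to 4316 for culture in Ezh2KO, 2004 to 8195 in control, 271 to 2552 for the difference and 0 to 12648 for H3K27me3. Without both iTreg libraries that stood apart (iTreg KO.165 and control 177) they were 7409, 6697, 7481, 8673 and 5347 in the same order for RNA. With 6 libraries alone they were 539 (iTreg), 6397 (Th0), 596 (Ezh2KO) and 6500 (control), and DESeq2 called 2359 in Th0 and 1266 for the difference.
Of the 7 genes, with 1 library left out 0 to 5 were called in iTreg, 0 to 3 in Th0, 0 to 2 for culture in Ezh2KO, 0 to 3 in control, 0 to 3 for the difference and 0 to 4 for H3K27me3. Without both iTreg libraries the numbers were 4, 3, 1, 2 and 3. With 6 libraries alone they were 0 in iTreg, where Il4 and Il13 fell below the filter, 2 in Th0 and 3 in control. With no filter they were 2 in Th0 and 1 for culture in Ezh2KO, both including Il5, and with DESeq2 they were 3 in iTreg (Il13 gained, adjusted p = 0.0323), 1 for culture in Ezh2KO and 1 for the difference.
The cause of these moves was not tested. Depth limits Il4, Il5 and Il13, whose control values rest on 0 to 10 reads per library.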

Other observations

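The share of Il13 among the reads of Il4 and Il13 together was computed after the values of both genes were seen. It was 19.8%, 21.4% and 30.0% in iTreg Ezh2KO libraries KO.150, KO.153 and KO.165, against 55.4%, 58.8% and 66.7% in Th0 Ezh2KO libraries KO.165, KO.174 and KO.175. The shares did not overlap, although the summed reads of both genes differed widely within each group. The means were 23.7 ± 5.50% in iTreg Ezh2KO and 60.3 ± 5.77% in Th0 Ezh2KO (SD, n = 3 each), a difference of -36.6 percentage points. The exact two-sided permutation p was 0.1, the smallest that 3 against 3 can give. Control libraries had 14 or fewer reads of both genes together, also too few to place.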
